A study of Mus musculus with 20 samples.

Results

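The genes described here are 40 members of the tumour necrosis factor (TNF) and NF-kB pathway, read here in 20 RNA-seq libraries made from sorted cells of mouse bone marrow. They were taken by name: NF-kB subunits, IkB inhibitors, kinases, ligands, receptors, adaptors, brakes and survival genes, and common target genes. Each of the 40 symbols matched 1 of the 45706 gene identifiers in the deposited table, and all 40 are protein-coding. Of these, 39 passed a filter on low values together with 17160 genes in all. The exception was Lta, which encodes lymphotoxin alpha and had 2 reads in WT MPP2 replicate 3 and 0 reads in the other 19 libraries.

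NF-kB is a family of dimeric transcription factors held in the cytoplasm by IkB proteins. A TNF-family ligand that binds its receptor recruits TRADD, TRAF and RIPK1 proteins, which switch on the IkB kinase complex. The kinase marks IkB for destruction and the freed dimer enters the nucleus. A slower, noncanonical branch runs from the lymphotoxin beta receptor through the kinase NIK (Map3k14) to p52 and RelB. Many targets of NF-kB are its own inhibitors, such as IkB alpha and A20, so the pathway limits itself. In blood stem cells the pathway is known as a route by which inflammatory signals act on survival and on myeloid output.

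The donors of every group were C57BL/6 mice aged 8 weeks. Knockout (KO) animals lack Hopx, a small homeodomain protein, and wild-type (WT) animals carry it. MPP2 and MPP3 are multipotent progenitors, known to lean toward platelets and red cells (MPP2) and toward granulocytes and macrophages (MPP3), and LT-HSC are long-term haematopoietic stem cells. The groups were KO MPP2 (3 libraries), WT MPP2 (3), KO MPP3 (3), WT MPP3 (4), KO LT-HSC (3) and WT LT-HSC (4). The labels do not say whether the libraries come from separate animals or whether populations share an animal, so p-values measure only the spread between these libraries. They also do not say how the Hopx allele was made or which surface antigens defined the sort.

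Each library held 11163345 to 15189909 reads in genes, and 14931 (KO MPP2 replicate 3) to 20831 (WT MPP3 replicate 2) genes had a read. Hopx had 0 reads in all 9 KO libraries and 11 to 70 reads in 10 of the 11 WT libraries, and 0 reads in the library labelled WT LT-HSC replicate 4, so the label of that library is not borne out by the gene. Hoxb5 (MPP2 against LT-HSC) and Mpo (MPP3 against LT-HSC), chosen after their values were seen, differed in the labelled direction. Hoxb5, a stem-cell gene, averaged 34.1 ± 43.8 normalised counts in KO MPP2 and 8.18 ± 8.27 in WT MPP2, and 149 ± 59.2 in KO LT-HSC and 264 ± 94.8 in WT LT-HSC (SD, n = 3 or 4). Mpo, the myeloperoxidase of granulocyte precursors, averaged 95735 ± 9806 in KO MPP3 and 56781 ± 48331 in WT MPP3, against 30.2 ± 34.4 in KO LT-HSC and 43.4 ± 67.8 in WT LT-HSC. Mpo overlapped between MPP2 and MPP3. It had 22559 and 41133 in WT MPP2 replicates 1 and 3, and 13394 and 17304 in WT MPP3 replicates 2 and 3. The summed megakaryocyte and platelet genes given below did not overlap between MPP2 and MPP3. Going by sex-linked transcripts, males made up 1 of the 3 libraries in every KO group and 2 or 3 of the 3 or 4 in every WT group.

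Levels between genes were compared as RPKM, that is reads scaled by exon length and by the reads in genes of the library. The median RPKM over the 20 libraries was highest for Nfkbia, at 109, which encodes IkB alpha, the inhibitor that NF-kB itself induces. Next came Ccl4 at 46.7, Rela at 37.3, Tnfrsf1a at 30.7, Ltb at 25.3 and Tradd at 23.4. Rela encodes p65, the main transactivating subunit, and Tnfrsf1a the TNF receptor TNFR1. Nfkb1, which encodes p105 and its product p50, stood at 11.6, and Rel at 2.17, Nfkb2 at 2.30 and Relb at 1.90. Tnf itself had a median of 2.65. The lowest tested genes were Traf1 at 0.386 and Cxcl2, whose median was 0.

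Spread across libraries differed widely between members. Nfkb1 ranged from 1398 to 2451 normalised counts (reads divided by the deposited size factor of the library) over all 20 libraries and Sod2, the mitochondrial superoxide dismutase, from 1824 to 3234. Ccl3 ranged from 0 to 2472 and Bcl3 from 33.1 to 1201. The heat map of the 39 tested genes by library shows both kinds of row. KO MPP2 replicate 3, the library with the fewest genes read, was the highest of all 20 in 8 members and the lowest in 9, and 5 members had 0 reads there.

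**Figure D1:**
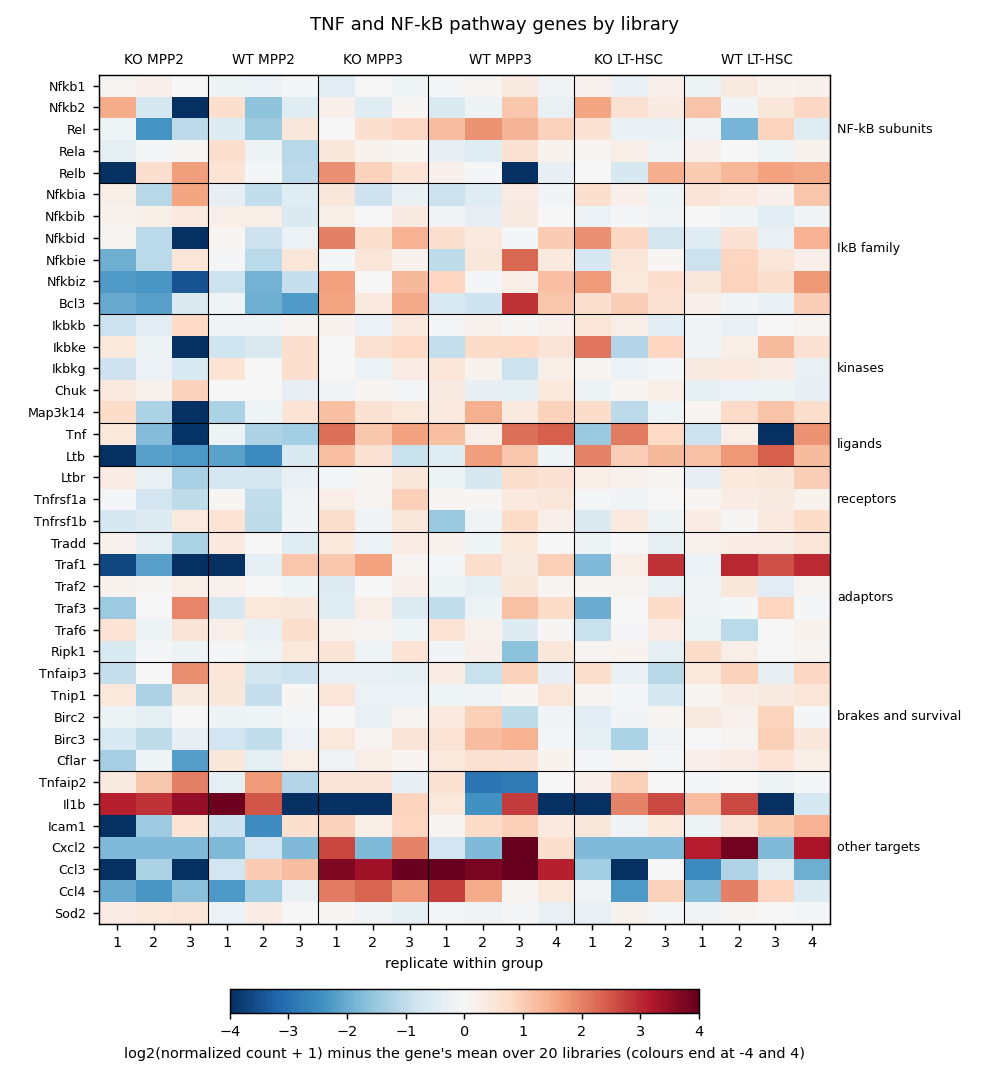
Level of 39 pathway genes (rows, grouped by role) in 20 libraries (columns, grouped by population and genotype), as log2(normalised count + 1) minus the mean of each gene over all libraries. Blue is below and red above that mean; Nfkbiz and Ltb are blue across the 6 MPP2 libraries, and Ccl3 is dark red across the 7 MPP3 libraries.

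Several members lie close together in the genome (GRCm38, GENCODE M21). Ltb (chr17:35194439-35196320, plus strand), Tnf (chr17:35199381-35202007, minus) and Lta (chr17:35203165-35205351, minus) form the TNF and lymphotoxin cluster. Ccl3 (chr11:83647844-83649355, minus) and Ccl4 (chr11:83662584-83664683, plus) are neighbours, as are Birc2 (chr9:7818227-7837064, minus) and Birc3 (chr9:7848699-7873186, minus). Ltbr (chr6:125306571-125313885, minus) and Tnfrsf1a (chr6:125349362-125362484, plus) lie near each other, and whether another gene lies between them was not tested. In 10 members the exons overlap those of another gene, and whether counting used strand is not stated, so reads of the partner cannot be told apart. Of the genes described with full values below this concerns Bcl3 (an antisense gene over 6.5% of its exon length) and Tnfaip2 (6.3%).

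The start regions of 4 members called between populations are printed, 3 that hold a kB site near the start and, for contrast, Ccl3, from RefSeq on GRCm38.p6, 5′ to 3′ on the strand of the gene, from 250 bases before the start to 30 bases from the start on. Capitals mark every match to the kB consensus, the NF-kB recognition sequence of 10 bases, on either strand. The stretches are chr17:35194257-35194536 (plus strand) for Ltb, chr7:19822726-19823005 (minus) for Bcl3, chr11:23770940-23771219 (minus) for Rel and chr11:83649349-83649628 (minus) for Ccl3.
Ltb: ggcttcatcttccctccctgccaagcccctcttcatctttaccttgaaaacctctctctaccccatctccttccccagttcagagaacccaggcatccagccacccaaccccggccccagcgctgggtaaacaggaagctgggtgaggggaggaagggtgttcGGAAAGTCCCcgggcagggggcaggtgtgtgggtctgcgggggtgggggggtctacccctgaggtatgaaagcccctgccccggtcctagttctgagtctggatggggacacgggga
Bcl3: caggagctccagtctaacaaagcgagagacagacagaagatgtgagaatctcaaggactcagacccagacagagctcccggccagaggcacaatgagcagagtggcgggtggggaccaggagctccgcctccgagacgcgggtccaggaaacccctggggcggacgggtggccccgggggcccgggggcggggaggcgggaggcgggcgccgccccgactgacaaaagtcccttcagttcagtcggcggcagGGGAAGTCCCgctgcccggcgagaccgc
Rel: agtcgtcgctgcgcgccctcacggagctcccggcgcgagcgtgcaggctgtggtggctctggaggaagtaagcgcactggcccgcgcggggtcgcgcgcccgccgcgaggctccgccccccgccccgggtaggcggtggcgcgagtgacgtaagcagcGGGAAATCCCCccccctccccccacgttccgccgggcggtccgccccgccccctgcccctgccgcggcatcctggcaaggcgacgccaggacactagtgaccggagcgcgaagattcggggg
Ccl3: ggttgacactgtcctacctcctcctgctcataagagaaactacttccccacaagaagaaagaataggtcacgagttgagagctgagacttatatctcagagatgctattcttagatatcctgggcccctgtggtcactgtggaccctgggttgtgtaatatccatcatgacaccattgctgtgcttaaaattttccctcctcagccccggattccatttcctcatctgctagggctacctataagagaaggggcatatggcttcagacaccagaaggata

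Counting from 0 at the first transcribed base, the match lies at -87 to -78 in Ltb, where it reads as the consensus on the opposite strand. In Bcl3 it lies at 2 to 11 and in Rel at -92 to -83, and each of these reads as the consensus on both strands. Rel holds another match, shifted by a single base, on the opposite strand. The letters printed for Ccl3 hold no match. A start window (300 bases, 250 before and 50 after) was found for 34 of the 40 members, and 13 of these 34 genes (38.2%) had a match in at least 1 window. Over all genes with a window, matches overlapping each other counted separately and both strands searched, 2581 of 27025 (9.55%) had one. The members were picked as NF-kB genes, many of them known targets, so the share describes the choice. The other members with a match were Nfkbia, Nfkbid, Nfkbie, Nfkb2, Tnfaip3, Tnip1, Tnfaip2, Traf3, Sod2 and Cxcl2. Among the members called between populations, Tnfrsf1a, Traf1 and Birc3 held no match either, as in Ccl3. No window was found for the called members Nfkbiz and Ccl4, nor for Nfkb1, Relb, Ikbkb and Tradd.

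**Figure D2:**
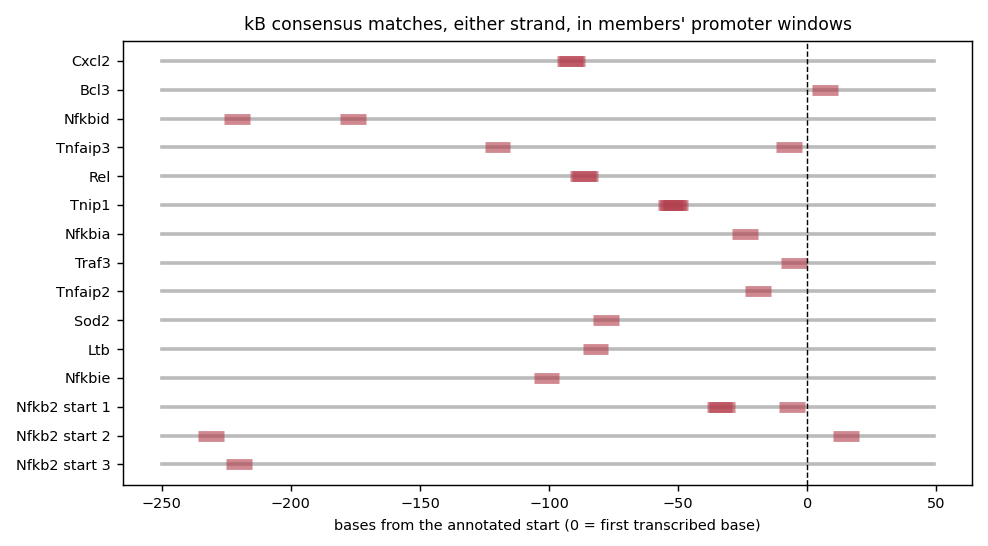
Position of each kB consensus match (red) along the start windows of members that hold one, in bases from the annotated start (0 is the first transcribed base; grey lines span the windows). The matches of Ltb and Rel lie before the start and the match of Bcl3 lies just after it.

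The populations were compared first, averaged over the genotypes, with limma on log2(normalised count + 1). A gene was called at a Benjamini-Hochberg adjusted p under 0.05 over all 17160 genes. MPP2 held most of the calls: 4 of 39 members were called against LT-HSC and 8 of 39 against MPP3, and all 12 of these calls were lower in MPP2. Of all genes tested, 7.32% were called between MPP2 and LT-HSC (5.08% lower in MPP2) and 6.88% between MPP2 and MPP3 (4.64% lower in MPP2). The members' shares were 10.3% against LT-HSC, close to the background, and 20.5% against MPP3. Against LT-HSC the count was 2 without KO LT-HSC replicate 3 and 7 without KO MPP2 replicate 1. Between MPP3 and LT-HSC 1 of 39 members was called, higher in MPP3, against 7.4% of all genes (3.22% higher in MPP3), which is below the background. The median log2 fold change of the 39 members was -0.54 for MPP2 minus LT-HSC (all genes -0.11), -0.60 for MPP2 minus MPP3 (all genes -0.09) and 0.04 for MPP3 minus LT-HSC (all genes -0.00). In bulk RNA from a sorted population, fewer cells with a transcript and less transcript per cell cannot be told apart. The 3 comparisons share libraries pairwise and are not independent.

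The ligand gene with the largest difference was Ltb, which encodes lymphotoxin beta, a membrane-bound part of the ligand of the lymphotoxin beta receptor. It had 16.2, 63.1 and 58.0 normalised counts in KO MPP2 and 63.8, 48 and 189 in WT MPP2. In MPP3 it had 658, 432 and 153 in KO and 203, 908, 611 and 253 in WT libraries. In LT-HSC it had 1134, 570.1 and 706 in KO and 653, 955, 1514 and 694 in WT libraries. All 6 MPP2 libraries thus lay below all 7 LT-HSC libraries, while MPP2 and MPP3 overlapped only in WT MPP2 replicate 3 and KO MPP3 replicate 3. Ltb fell in MPP2 against LT-HSC (log2 fold change -3.84, SE 0.47, limma adjusted p = 0.000179) and against MPP3 (-2.71, SE 0.47, limma adjusted p = 0.0022). MPP3 lay below LT-HSC by -1.13 (SE 0.45), which was not called (limma adjusted p = 0.176).

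Tnf, the founding ligand of the family, had few reads. It averaged 24.6 ± 21.0 normalised counts in MPP2 (SD, n = 6), 148 ± 69.3 in MPP3 (n = 7) and 73.5 ± 73.0 in LT-HSC (n = 7), and the ranges of the 3 populations overlapped. Its difference between MPP2 and MPP3 was -2.92 on the log2 scale (SE 0.98) and was not called (limma adjusted p = 0.0881). It was called with DESeq2, with a pseudocount of 16, and without WT LT-HSC replicate 3 or KO MPP2 replicate 1.

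Among the receptors, Tnfrsf1a (TNFR1) was the one called. It had 966, 598 and 506 normalised counts in KO MPP2 and 1055, 512 and 936 in WT MPP2. MPP3 libraries had 1242, 1112 and 1971 in KO and 1082, 1049, 1340.0 and 1415 in WT libraries. LT-HSC libraries had 966, 941 and 1018 in KO and 1071, 1245, 1302 and 1121 in WT. A single MPP2 library, WT replicate 1, reached into the MPP3 range. The decrease in MPP2 against MPP3 was small beside that of Ltb (log2 fold change -0.84, SE 0.19, limma adjusted p = 0.0136), and against LT-HSC it was called, of all alternatives run, only without KO MPP2 replicate 1 (-0.56, SE 0.19, limma adjusted p = 0.0839 in all libraries). Ltbr, the lymphotoxin beta receptor, averaged 304 ± 114 in MPP2, 457 ± 143 in MPP3 and 504 ± 146 in LT-HSC (SD, n = 6, 7 and 7), with no call. Tnfrsf1b, which encodes TNFR2, averaged 321 ± 139, 397 ± 159.8 and 401 ± 114 in the same order, with no call.

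Of the 6 adaptors, Traf1 alone was called. TRAF1 is a TRAF protein without the ring domain of its relatives and a known NF-kB target. It had 1.91, 7.10 and 0.982 normalised counts in KO MPP2 and 0, 27.0 and 78.0 in WT MPP2. Its MPP3 values were 76.6, 110.5 and 38.2 in KO and 34.3, 57.8, 45.4 and 69.4 in WT libraries. LT-HSC were spread most, with 9.80, 43.0 and 269 in KO and 30.2, 295, 218 and 286 in WT. MPP2 and LT-HSC overlapped at the low end of LT-HSC. The decrease in MPP2 against LT-HSC passed the test (log2 fold change -3.69, SE 0.93, limma adjusted p = 0.023), and without KO LT-HSC replicate 3 it did not (limma adjusted p = 0.0646). Because many libraries held few reads of Traf1, the fold depends on the added count of 1. Against MPP3 Traf1 was not called (-3.12, SE 0.93, limma adjusted p = 0.0512), but it was called with DESeq2, with the library-number range as a covariate, and without any of 5 single libraries: KO LT-HSC replicate 1 or 3, WT LT-HSC replicate 1, KO MPP2 replicate 2 or WT MPP2 replicate 3.

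The other adaptors gave no call. Traf2, the partner of TRAF1 at TNF receptors, averaged 769 ± 82.4 in MPP2, 721 ± 172 in MPP3 and 733 ± 152 in LT-HSC (SD, n = 6, 7 and 7). Ripk1, the kinase that joins survival and death signalling at TNFR1, averaged 544 ± 128, 625 ± 237 and 655 ± 157 in the same order. Tradd, Traf3 and Traf6 were also not called in any population comparison. Likewise 0 of the 5 kinases were called in any of the 3 comparisons (0 with an unadjusted limma p under 0.05 between MPP2 and LT-HSC, and Map3k14 between MPP2 and MPP3). Chuk and Ikbkb, the catalytic IkB kinases, averaged 1140.0 ± 375 and 1447 ± 586 in MPP2, 962 ± 216 and 1574 ± 206 in MPP3, and 873 ± 142 and 1496 ± 331 in LT-HSC. Map3k14 averaged 55.2 ± 45.0 in MPP2, 121 ± 37.6 in MPP3 and 94.4 ± 40.7 in LT-HSC, and the difference between MPP2 and MPP3 was -2.01 (SE 0.77, limma adjusted p = 0.137), called, of all alternatives run, only without KO MPP2 replicate 1.

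Among the 5 NF-kB subunits Rel was the one called. It encodes c-Rel, the subunit best known from lymphoid cells. Rel had 201, 42.6 and 109 normalised counts in KO MPP2 and 159, 84.1 and 311 in WT MPP2. In MPP3 it had 225, 357 and 406 in KO and 538, 789, 582 and 437 in WT libraries. LT-HSC libraries had 341, 189 and 189.7 in KO and 207, 61.7, 422 and 162 in WT libraries. MPP3 libraries were the highest group, and MPP2 reached into them with WT replicate 3 only. Rel fell in MPP2 against MPP3 (log2 fold change -1.76, SE 0.44, limma adjusted p = 0.0212). The call was lost without WT MPP2 replicate 2 (limma adjusted p = 0.0662) and without KO MPP3 replicate 3 (0.0583).

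The other subunits did not pass. Rela averaged 1408 ± 566 in MPP2, 1609.8 ± 419.7 in MPP3 and 1546 ± 171 in LT-HSC (SD, n = 6, 7 and 7), and Nfkb1 averaged 1874 ± 221, 1865 ± 329 and 2023 ± 311. Nfkb2 and Relb, the pair of the noncanonical branch, averaged 129.9 ± 130.2 and 86.1 ± 75.6 in MPP2, 135 ± 64.1 and 94.8 ± 75.8 in MPP3, and 221 ± 88.4 and 143 ± 64.1 in LT-HSC. The lowest of the 3 limma adjusted p-values of Nfkb2 was 0.179 (MPP2 minus LT-HSC), and that difference was called without KO MPP2 replicate 1.

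Of the 6 IkB family members, Nfkbiz and Bcl3 were called. Nfkbiz encodes IkB zeta, a nuclear member of the family that works with NF-kB on secondary response genes. It had 49.5, 47.1 and 20.6 normalised counts in KO MPP2 and 133, 65.0 and 126 in WT MPP2. MPP3 libraries had 761, 239 and 596 in KO and 445, 236, 282 and 563 in WT libraries. Its LT-HSC values were 795, 323 and 388 in KO and 329, 449, 397 and 815 in WT libraries. Every MPP2 library lay below every library of both other populations, and MPP3 and LT-HSC overlapped across most of their ranges. Nfkbiz fell in MPP2 against LT-HSC (log2 fold change -2.90, SE 0.36, limma adjusted p = 0.000205) and against MPP3 (-2.73, SE 0.36, limma adjusted p = 0.000265). Between MPP3 and LT-HSC the difference was -0.17 (SE 0.35).

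Bcl3, another nuclear IkB protein, which binds p50 and p52 dimers, had 39.1, 35.5 and 109 normalised counts in KO MPP2 and 142, 41.0 and 33.1 in WT MPP2. Its MPP3 values were 490.1, 212 and 469.7 in KO and 105, 91.7, 1201 and 349.9 in WT libraries. In LT-HSC it had 258, 321 and 246 in KO and 187, 151, 135 and 319 in WT libraries. WT MPP2 replicate 1 overlapped the lowest LT-HSC library, and WT MPP3 spanned both low and high values. Bcl3 fell in MPP2 against MPP3 (log2 fold change -2.43, SE 0.55, limma adjusted p = 0.0121). Against LT-HSC the decrease was called (-2.0, SE 0.55, limma adjusted p = 0.0329), but that call was lost with edgeR (adjusted p = 0.0789) and without any of 8 single libraries: each KO LT-HSC replicate, the library labelled WT LT-HSC replicate 4, KO MPP2 replicates 1 and 2, and WT MPP2 replicates 2 and 3 (limma adjusted p 0.0566 to 0.0825).

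The cytoplasmic inhibitors gave no call. Nfkbia averaged 2487 ± 2158 in MPP2, 1989.6 ± 733 in MPP3 and 3057 ± 912 in LT-HSC (SD, n = 6, 7 and 7), with KO MPP2 replicate 3 at 6736. Nfkbib, which encodes IkB beta, averaged 692 ± 139, 667 ± 118 and 561 ± 46.8 in the same order. Nfkbid, which encodes the nuclear protein IkBNS, averaged 97.8 ± 60.2 in MPP2, 295 ± 151 in MPP3 and 243 ± 164 in LT-HSC, and its differences of -2.45 (SE 0.85, MPP2 minus MPP3) and -2.0 (SE 0.85, MPP2 minus LT-HSC) were not called (limma adjusted p = 0.0967 and 0.166). Without KO MPP2 replicate 1 both were, and with a pseudocount of 16 the first.

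Of the brakes and survival genes Birc3 was called. It encodes cIAP2, a ubiquitin ligase at the TNF receptor and a known NF-kB target. Birc3 had 245, 185 and 299 normalised counts in KO MPP2 and 218, 188 and 318 in WT MPP2. In MPP3 it had 502, 404 and 537 in KO and 542, 874, 969 and 362 in WT libraries. LT-HSC libraries had 284, 153 and 335 in KO and 374, 403, 719 and 504 in WT libraries. The MPP2 and MPP3 libraries did not overlap, and Birc3 fell in MPP2 against MPP3 (log2 fold change -1.22, SE 0.27, limma adjusted p = 0.0108). Its neighbour Birc2, which encodes cIAP1, averaged 951 ± 87.3 in MPP2, 1152 ± 485 in MPP3 and 1209 ± 378 in LT-HSC, with no call. Tnfaip3, which encodes the deubiquitinase A20, averaged 189 ± 179, 143 ± 66.3 and 183 ± 81.3, and Tnip1, its binding partner, 301 ± 128, 318 ± 75.0 and 330.4 ± 79.0, in the same order and with no call. Cflar averaged 400 ± 222, 613 ± 115 and 571 ± 87.1 in that order and was not called. Without KO MPP2 replicate 2 it was called between MPP2 and each other population, and with the library-number range as a covariate between MPP2 and MPP3.

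The largest difference of the set belonged to Ccl3, the chemokine MIP-1 alpha. It had 0, 48 and 0 normalised counts in KO MPP2 and 68.2, 235 and 278 in WT MPP2. MPP3 libraries had 1549.9, 1228 and 1812 in KO and 2472, 1612, 1964 and 1021 in WT libraries. Its LT-HSC values were 44.7, 1.76 and 115 in KO and 19.2, 50.3, 83.8 and 29.4 in WT libraries. Every MPP3 library lay above every library of the other populations. Ccl3 rose in MPP3 against LT-HSC (log2 fold change 5.66, SE 0.86, limma adjusted p = 0.000317) and fell in MPP2 against MPP3 (-6.02, SE 0.89, limma adjusted p = 0.000729). MPP2 and LT-HSC overlapped (-0.35, SE 0.89). Since a pair of MPP2 libraries was at 0, the fold between MPP2 and MPP3 depends on the added count of 1.

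Its neighbour Ccl4, the chemokine MIP-1 beta, had 101, 81.7 and 128 normalised counts in KO MPP2 and 83.0, 158 and 332 in WT MPP2. Its MPP3 values were 1736, 2071 and 1370.1 in KO and 2776, 1145, 435 and 553 in WT libraries. In LT-HSC it had 376, 82.6 and 784 in KO and 125, 1674, 748 and 288 in WT libraries. MPP2 and MPP3 did not overlap, while LT-HSC spanned both. Ccl4 fell in MPP2 against MPP3 (log2 fold change -3.28, SE 0.61, limma adjusted p = 0.00379). Between MPP2 and LT-HSC it was not called, except with DESeq2 and with the library-number range as a covariate. MPP3 against LT-HSC gave 1.78 (SE 0.59) and was not called (limma adjusted p = 0.08), but was called without KO LT-HSC replicate 3 (0.0413) or without WT LT-HSC replicate 2 (0.0292).

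**Figure D3:**
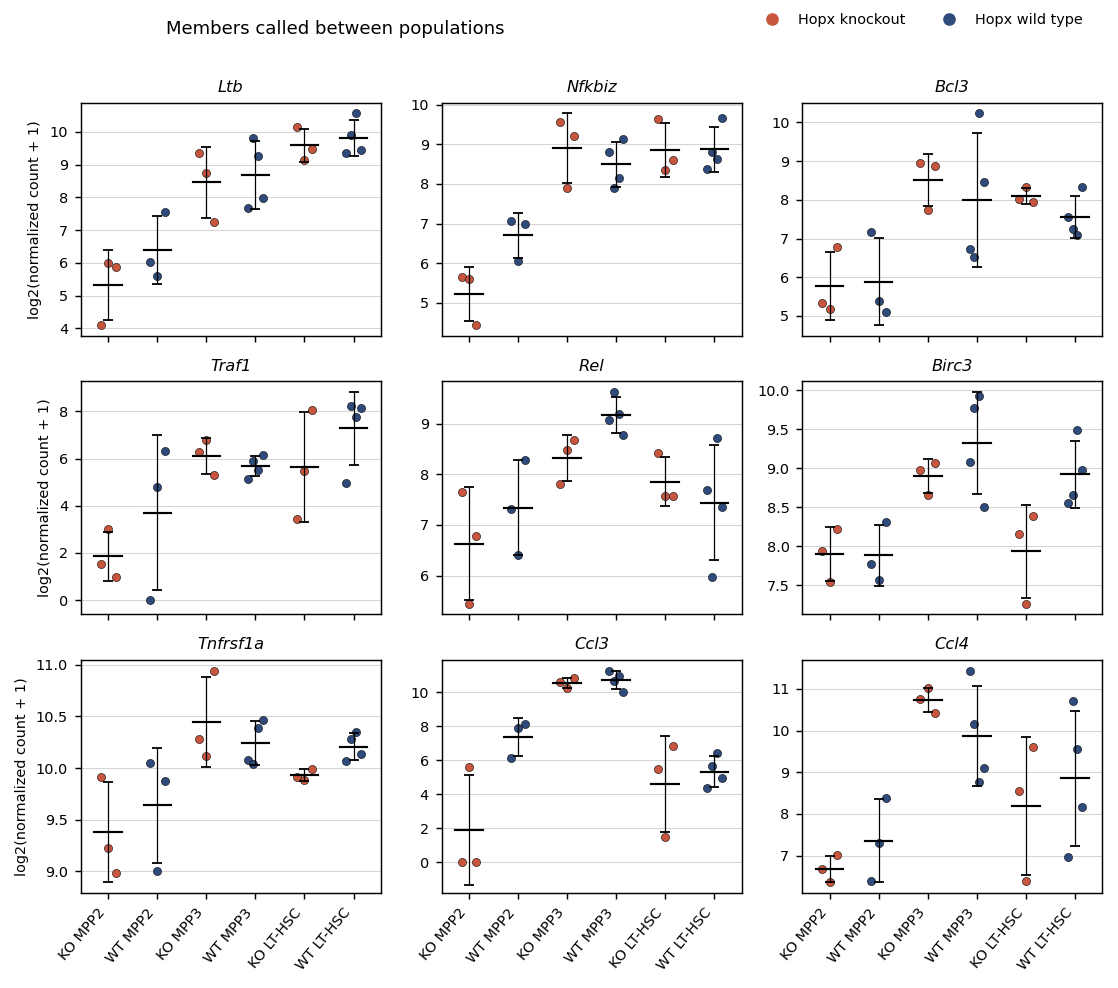
Level of the 9 members called between populations, as log2(normalised count + 1) by group. Points are libraries (red KO, blue WT), the horizontal bar is the group mean and the whiskers are 1 SD of the log2 values (n = 3 or 4). The MPP2 groups are lowest for Ltb, Nfkbiz and Bcl3, and the MPP3 groups stand above all others for Ccl3.

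The remaining targets moved in no single direction. Il1b, which encodes the cytokine interleukin 1 beta, had reads in 5 of 6 MPP2 libraries, at up to 284 normalised counts, and was at 0 in 3 of 7 MPP3 and 2 of 7 LT-HSC libraries. Its difference between MPP2 and MPP3 was 3.65 (SE 1.61) and was not called (limma adjusted p = 0.206). Icam1, an adhesion molecule and classical NF-kB target, averaged 291 ± 274 in MPP2, 656 ± 153 in MPP3 and 638 ± 261 in LT-HSC (SD, n = 6, 7 and 7), not called against either (limma adjusted p = 0.0577 against MPP3 and 0.0745 against LT-HSC). Without KO MPP2 replicate 3 or without WT MPP2 replicate 3 it was called against both, as it was against LT-HSC with the library-number range as a covariate and against MPP3 with a pseudocount of 16. Sod2 was the reverse of most, at 2744 ± 479 in MPP2, 2118 ± 203 in MPP3 and 2238 ± 215 in LT-HSC, and was not called (0.36, SE 0.11, limma adjusted p = 0.0511 against MPP3), except with DESeq2 and without KO LT-HSC replicate 1 or WT MPP2 replicate 1.

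**Figure D4:**
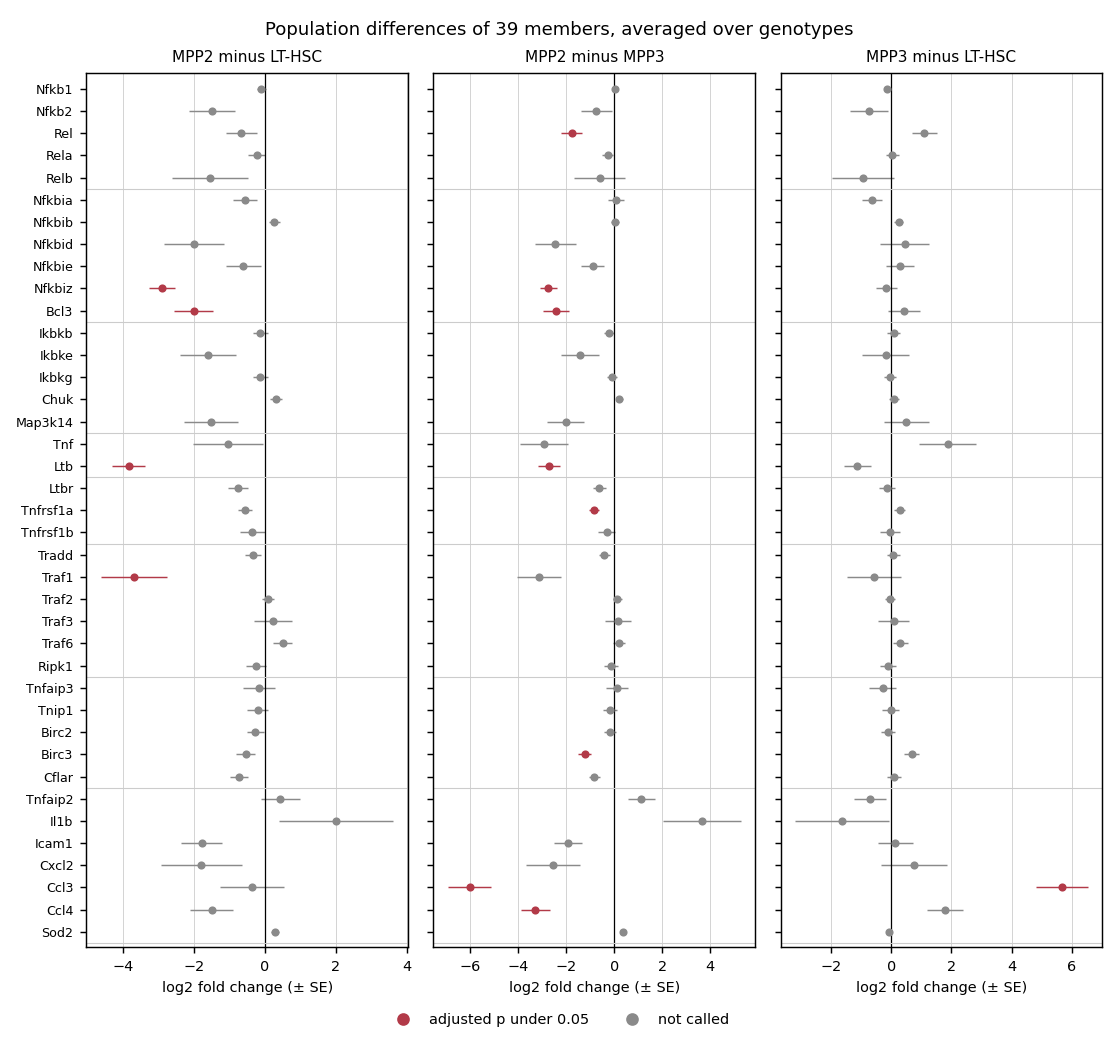
Log2 fold change (± SE) of 39 members, ordered by role, between populations averaged over the genotypes. Red points have a limma adjusted p under 0.05; all red points of the MPP2 panels lie below 0 and the single red point of the MPP3 minus LT-HSC panel, Ccl3, lies above it.

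Within a genotype the same comparisons rest on fewer libraries. Within KO, Ltb and Nfkbiz were called between MPP2 and LT-HSC (2 of 39, 1.2% of all genes), Ccl3 between MPP3 and LT-HSC (1 of 39, 1.91% of all genes), and Ccl3, Ccl4, Ltb, Tnfrsf1a and Nfkbiz between MPP2 and MPP3 (5 of 39, 2.79% of all genes). Within WT, Ltb and Nfkbiz were called between MPP2 and LT-HSC (2 of 39, 0.833% of all genes) and Ccl3 between MPP3 and LT-HSC (1 of 39, 3.97% of all genes). Between WT MPP2 and WT MPP3 limma called 0 of 39 (0.431% of all genes). At an unadjusted p under 0.05 were 8 of 39 members and 1642 of all 17160 genes. Ltb was lower in MPP2 than in LT-HSC by -4.26 (SE 0.68) in KO and -3.41 (SE 0.64) in WT. Nfkbiz was lower in MPP2 than in MPP3 by -3.67 (SE 0.53) in KO and -1.79 (SE 0.49) in WT, the second with a limma adjusted p of 0.132. Whether these differences depend on genotype was tested as an interaction, given with the genotype results.

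The library numbers in the titles fall into 4 ranges whose meaning the labels do not give. The titles also carry a suffix, shared by all libraries of a population and different between populations. Its meaning is not given either, so whatever it stands for cannot be told apart from the population. Within a range and genotype, 5 pairs of populations could be set against each other. Of the 39 tested members, 15 were lower in MPP2 than in MPP3 in all 5 pairs and 2, Traf2 and Sod2, were higher. The 15 held the 8 called members and 7 others, namely Tnf, Nfkbid, Map3k14, Icam1, Cflar, Tradd and Birc2. Against LT-HSC, 9 members were lower in MPP2 in all 5 pairs, the 4 called ones and Relb, Nfkbia, Ikbke, Icam1 and Ccl4. In MPP3, 5 members were above LT-HSC in all 5 pairs (Ccl3, Ccl4, Birc3, Tnf and Nfkbib) and 4 were below (Ltb, Ltbr, Nfkb1 and Nfkb2). Counts by pair were not made for all genes, so the numbers of members on a side have no background to be judged by. In the limma fits averaged over the genotypes, all genes leaned lower in MPP2 too. For MPP2 minus MPP3, 56.4% of all genes and 71.8% of members were below 0. For MPP2 minus LT-HSC, it was 57.8% of all genes and 79.5% of members. The pairs use the same libraries as the tests and are no further support for the calls. All libraries of a range and genotype were of the same sex.

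Other gene groups moved between the populations too. Of 16 tested immediate early genes, such as Fos, which respond within minutes to stimulation, 8 (50%, against 7.32% of all genes) were called lower in MPP2 than in LT-HSC and 2 (12.5%, against 6.88%) lower in MPP2 than in MPP3. Their summed normalised counts ran from 20438 to 30462 in KO MPP2, 9850.0 to 33503 in WT MPP2, 38193 to 54018 in KO MPP3, 11721 to 58214 in WT MPP3, 44995 to 83471 in KO LT-HSC and 29813 to 105068 in WT LT-HSC. Of 10 myeloid progenitor genes, all 10 (100%, against 7.4% of all genes) were called higher in MPP3 than in LT-HSC. In MPP2 6 (60%, against 7.32%) were called higher than in LT-HSC and 4 (40%, against 6.88%) lower than in MPP3. Their sum ran from 1921 to 25390.3 in KO MPP2, 1551 to 76315 in WT MPP2, 111724 to 151135 in KO MPP3, 19737 to 142187 in WT MPP3, 1718 to 1847 in KO LT-HSC and 1276 to 3391 in WT LT-HSC.

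Of 10 megakaryocyte and platelet genes, 7 (70%, against 6.88% of all genes) were called higher in MPP2 than in MPP3. Lower in MPP3 than in LT-HSC were 8 of these genes (80%, against 7.4%). Their sum ran from 16651 to 81573 in KO MPP2, 7700.0 to 54122 in WT MPP2, 2713 to 3205 in KO MPP3, 2047 to 4762 in WT MPP3, 16278 to 47187 in KO LT-HSC and 12294 to 32215 in WT LT-HSC. Of 15 stem-cell markers, 10 were called lower in MPP2 than in LT-HSC (66.7%, against 7.32% of all genes). In MPP3 11 were called lower than in LT-HSC (73.3%, against 7.4%). The sums of the progenitors (3102 to 12233) lay below all those of LT-HSC (16599 to 24650.0). Of the 10 T- and NK-cell genes, 4 were tested. Between MPP2 and LT-HSC 2 of the 4 were called (50%, against 7.32% of all genes), 1 higher and 1 lower in MPP2. The median log2 fold change of the 4 was -1.11 there. Between MPP3 and LT-HSC 1 was called (25%, against 7.4%), higher in MPP3, with a median of 0.94. The sum over all 10 genes was higher in both progenitors without overlap, at 3885 to 11075 in MPP2 and 5219 to 10000.5 in MPP3, against 1528 to 3340.2 in LT-HSC. In that list Cd3e was at 0 in every group but KO LT-HSC (mean 0.726), and 3 to 6 of the 10 genes were at 0 in a group. The sum of 12 monocyte and macrophage genes overlapped between the populations, at 3623 to 11933 in MPP2, 7301 to 11960.0 in MPP3 and 7168 to 11020.4 in LT-HSC. In that list 2 of the 12 (16.7%, against 7.4% of all genes) were called higher in MPP3 than in LT-HSC. Neutrophil genes stood out in single libraries, with sums of 26011 in KO LT-HSC replicate 1, 26758 and 19841 in WT MPP3 replicates 2 and 3, 17498 in WT LT-HSC replicate 2 and 8458 in WT MPP2 replicate 2, against at most 976 in the other libraries. The sum of 9 B-cell genes was 4301 in KO LT-HSC replicate 1 and 3167 in WT MPP3 replicate 3. It was at most 1291 in the other libraries. Red-cell sums overlapped between the populations. Of 10 such genes 0 were called between MPP2 and MPP3, and 1 (10%, against 7.32% of all genes) was called higher in MPP2 than in LT-HSC. The part of all these gene groups in the results was not tested.

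Hopx knockouts were then set against wild type, which asks whether loss of Hopx altered the pathway. No member passed the test: limma called 0 of 39 in MPP2 (0.0117% of all genes, 2 genes), 0 of 39 in MPP3 (0.00583%, 1 gene), 0 of 39 in LT-HSC (0.00583%, 1 gene) and 0 of 39 averaged over the populations (0.0117%, 2 genes). At an unadjusted p under 0.05 there were 6, 0, 2 and 6 of 39 members in the same order. Over all 17160 genes there were 1353, 347, 456 and 864. In each comparison edgeR and DESeq2 also called 0 members. The median log2 fold change of the members, KO minus WT, was -0.26 in MPP2 (all genes -0.10), 0.03 in MPP3 (all genes 0.03), -0.22 in LT-HSC (all genes -0.03) and -0.14 on average (all genes -0.05). Members below 0 made up 64.1% in MPP2 (all genes 57.9%), 43.6% in MPP3 (45.8%) and 66.7% in LT-HSC (52.8%). With 3 or 4 libraries a group the SE of single members reached above 1 on the log2 scale, so the result does not show that the genotypes were alike.

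The members of smallest p in KO MPP2 against WT MPP2 were Ccl3 and Cflar. The Ccl3 values given above, 0, 48 and 0 in KO and 68.2, 235 and 278 in WT, do not overlap, and the fitted difference (-5.50, SE 1.31, limma adjusted p = 0.257) depends on the added count because of the libraries at 0. In the same 3 KO libraries the myeloid progenitor sum was 3031, 1921 and, in replicate 2, 25390.3, and in WT MPP2 it was 37153, 1551 and 76315. Its part in the difference was not tested. Cflar encodes c-FLIP, which blocks caspase 8 below death receptors. It had 195, 436 and 106 normalised counts in KO MPP2 and 676, 387 and 601 in WT MPP2, so KO replicate 2 overlapped WT replicate 2. The difference was -1.37 (SE 0.36, limma adjusted p = 0.282). Without KO MPP2 replicate 2 both genes were called in MPP2, Cflar at -1.90 (limma adjusted p = 0.00178) and Ccl3 at -7.37 (0.00112), with 2 libraries left in KO MPP2. Over all genes, leaving out any 1 library gave 0 to 350 calls in MPP2, against 2 with all libraries. In the other populations Cflar had 449, 601 and 529.7 in KO MPP3 against 667, 756, 744 and 542 in WT MPP3, and 481, 531 and 477 in KO LT-HSC against 565, 622, 726 and 594 in WT LT-HSC. KO LT-HSC thus lay below WT LT-HSC without overlap, and KO MPP3 overlapped WT MPP3. Averaged over the populations Cflar was at -0.69 (SE 0.20, limma adjusted p = 0.857) and Ccl3 at -2.13 (SE 0.72, limma adjusted p = 0.857). Without KO MPP2 replicate 2 both averages were called as well (limma adjusted p = 0.0201 and 0.0426). For the average, leaving out any 1 library gave 2 to 72 calls over all genes.

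Other members with an unadjusted limma p under 0.05 in MPP2 were Ikbkg, Chuk, Nfkbiz and Sod2. Ikbkg, the regulatory subunit NEMO of the IkB kinase, was lower by -0.96 (SE 0.31, limma adjusted p = 0.453), while Chuk was higher by 0.61 (SE 0.24, limma adjusted p = 0.549). Nfkbiz, with 20.6 to 49.5 in KO MPP2 and 65.0 to 133 in WT MPP2, did not overlap between the genotypes there (-1.47, SE 0.53, limma adjusted p = 0.509).

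In LT-HSC the members of smallest p were Birc3 and Cxcl2. Birc3, with 153 to 335 in KO LT-HSC and 374 to 719 in WT LT-HSC, did not overlap (-0.98, SE 0.37, limma adjusted p = 1). Cxcl2, a chemokine that draws neutrophils, was at 0 in all 3 KO LT-HSC libraries and had 29.3, 48.4, 0 and 32.1 in WT LT-HSC. No fold is given for it because the KO group was at 0 (limma adjusted p = 1). It was also at 0 in all KO MPP2 libraries and in WT MPP2 except for 1.0 in replicate 2, and had 21.0, 0 and 12.7 in KO MPP3 and 1.01, 0, 152 and 4.51 in WT MPP3. Leaving out the library labelled WT LT-HSC replicate 4, in which Hopx was not read, brought 0 members to a call in any genotype comparison.

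In MPP3 the members of smallest p were Tnfaip2 and Relb. Tnfaip2, a TNF-induced gene first described in endothelium, had 1181, 1163 and 652 in KO MPP3 and 1243, 107, 114 and 806 in WT MPP3, with 1048, 1725 and 3350.3 in KO MPP2, 641, 2653 and 365 in WT MPP2, 949, 1592 and 831 in KO LT-HSC and 795, 838, 709 and 792 in WT LT-HSC. The genotypes overlapped in MPP3 (1.53, SE 0.76, limma adjusted p = 1). Relb had 241, 128 and 99.0 in KO MPP3 and 77.7, 62.8, 0.891 and 53.2 in WT MPP3, with no overlap (2.45, SE 1.45, limma adjusted p = 1). In the other groups Relb had 0, 107 and 217 in KO MPP2, 97, 64.0 and 31.9 in WT MPP2, 67.5, 42.2 and 184 in KO LT-HSC, and 140.1, 170.0, 207 and 191 in WT LT-HSC. In LT-HSC the genotypes overlapped, and neither population gave a call.

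**Figure D5:**
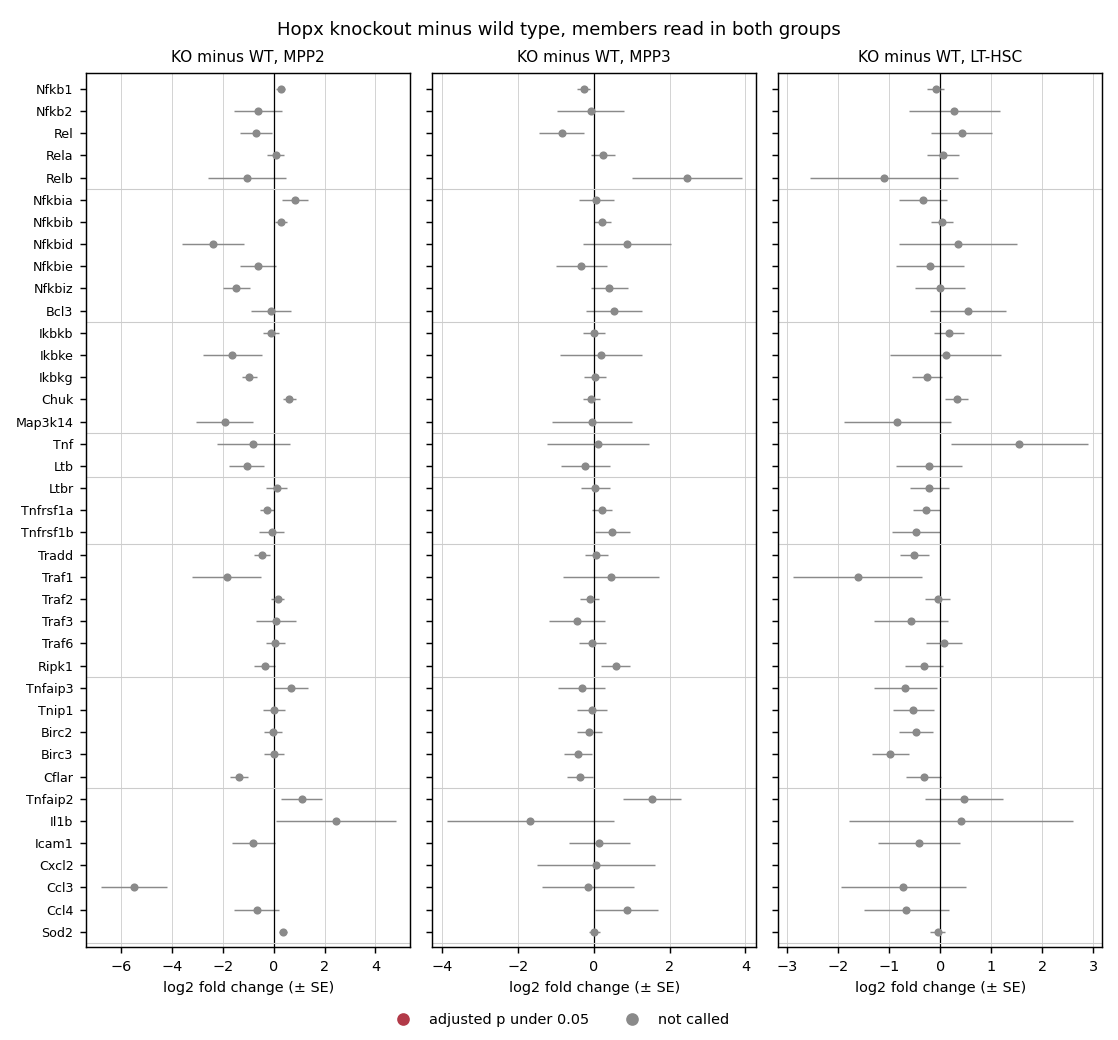
Log2 fold change (± SE), KO minus WT, of the tested members in each population. Cxcl2 is not drawn in MPP2 and LT-HSC, where all KO libraries were at 0. No point has a limma adjusted p under 0.05, and Ccl3 in MPP2 lies farthest below 0.

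Whether the effect of the knockout differed between populations was tested as an interaction. Limma called 0 of 39 members (0.0% of all genes). Ccl3 (unadjusted p = 0.0159) and Nfkbiz (0.0455) had a p under 0.05, both with a limma adjusted p of 1. Of all 17160 genes, 526 had an unadjusted p under 0.05. With edgeR and DESeq2, 0 members were called as well. For Ccl3 the KO minus WT difference was -5.50 in MPP2, -0.15 in MPP3 and -0.73 in LT-HSC, and for Nfkbiz it was -1.47, 0.41 and -0.01. Without KO MPP2 replicate 2 the interaction of Ccl3 was called. Leaving out any 1 library gave 0 to 83 interaction calls over all genes.

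Wider lists of the pathway, none of them members, were set between the populations too, with group means of 3 or 4 libraries. Of 22 tested TNF-family genes, 4 (18.2%, against 6.88% of all genes) were called between MPP2 and MPP3, all lower in MPP2. Among them Cd27, a co-stimulatory receptor of the TNF receptor family, averaged 649.6 normalised counts in KO MPP2 and 1202 in WT MPP2, against 2644 in KO MPP3 and 3039 in WT MPP3 (log2 fold change -1.79, SE 0.27, limma adjusted p = 0.00081). Tnfrsf11a, which encodes RANK, was read mainly in MPP3, at 13.9 in KO and 40.7 in WT, against 0 in KO LT-HSC and 6.74 in WT LT-HSC (3.38, SE 0.57, limma adjusted p = 0.000849). Tnfsf9 was called the other way, lower in MPP3 than in LT-HSC (-1.15, SE 0.33, limma adjusted p = 0.0357). In that comparison 4 of 22 were called (18.2%, against 7.4% of all genes), 3 higher and 1 lower in MPP3. Between MPP2 and LT-HSC 1 of 22 was called (4.55%, against 7.32%), lower in MPP2.

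Of 51 signalling genes 4 were called between MPP2 and LT-HSC, 1 higher and 3 lower in MPP2, which at 7.84% is close to the 7.32% of all genes. Il1rl1, the receptor of interleukin 33, averaged 597 in KO MPP2 and 197 in WT MPP2, against 39.8 in KO LT-HSC and 3.18 in WT LT-HSC (log2 fold change 6.15, SE 1.28, limma adjusted p = 0.00915). Lower in MPP2 were Tnip3 (-2.11, SE 0.50, limma adjusted p = 0.017), Ripk2 (-2.70, SE 0.78, limma adjusted p = 0.0417) and Tlr4, the receptor of bacterial lipopolysaccharide, at 13.6 in KO MPP2 and 99.9 in WT MPP2, against 259 in KO LT-HSC and 248 in WT LT-HSC (-3.60, SE 1.05, limma adjusted p = 0.0447). Il1r1, the receptor of interleukin 1, was highest in MPP3, at 604 in KO and 836 in WT, against 41.4 in KO LT-HSC and 75.4 in WT LT-HSC (3.83, SE 0.57, limma adjusted p = 0.000247). Between MPP3 and LT-HSC 3 of 51 were called (5.88%, against 7.4% of all genes), 2 higher and 1 lower in MPP3. Between MPP2 and MPP3 Il1r1 alone was called, lower in MPP2 (1 of 51, 1.96%, against 6.88%).

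Of 21 further targets, 4 (19%, against 7.32% of all genes) were called between MPP2 and LT-HSC, of which 3 were lower in MPP2: Gadd45b, a stress-response gene (-1.94, SE 0.35, limma adjusted p = 0.00339), Ninj1 (-0.75, SE 0.18, limma adjusted p = 0.0197) and the transcription factor Irf1 (-1.17, SE 0.32, limma adjusted p = 0.0361). Il6, the one called higher in MPP2, was at 0 in every LT-HSC and MPP3 library and averaged 9.75 in KO MPP2 and 23.9 in WT MPP2. Ccr7, a chemokine receptor, rose in MPP3 against LT-HSC, with 52.1 in KO MPP3 and 171 in WT MPP3, against 0 in KO LT-HSC and 2.65 in WT LT-HSC (5.69, SE 0.85, limma adjusted p = 0.000266). Bcl2l1, which encodes the survival protein Bcl-xL, fell in MPP3 against LT-HSC (-1.63, SE 0.33, limma adjusted p = 0.00371). In that comparison 3 of 21 were called (14.3%, against 7.4% of all genes), 1 higher and 2 lower in MPP3. Between MPP2 and MPP3 7 of 21 were called (33.3%, against 6.88%), 5 lower and 2 higher in MPP2. Plek was among the higher ones (1.44, SE 0.33, limma adjusted p = 0.0135).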

How the data were processed

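Libraries were made with the Nextera XT kit from total RNA of cells sorted by flow cytometry, per the labels' protocols. Per the submitters' processing notes, reads were aligned with TopHat2 2.1.1 to GRCm38, counted per gene with HTSeq 0.11.2 and scaled with DESeq (no version given). The unit of the deposited table is a scaled signal, which the authors obtained by dividing reads per gene by a size factor for the library. Whole reads were recovered for 100% of values within a tolerance of 1e-06. In 2 libraries a read has a value too near 1 for an automatic check. The sources used here do not give the annotation release, strand setting or filters. The 5 summary entries were left out: per library, 22.9 to 26.7% of entries were outside genes, 0.274 to 0.341% ambiguous and 52.6 to 57.8% not unique. Symbols came from GENCODE M21, matching 45143 of 45706 identifiers. Groups came from the labels, and replicate numbers follow accession order and pair nothing.

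Because the values are scaled and not counts, limma 3.58.1 in R 4.3.3 (trend, robust) was run on log2(value + 1), with 1 mean for each of 6 groups in all 20 libraries, for 17160 genes kept by the edgeR 4.0.16 expression filter. The added 1 understates the fold of genes with few reads. Benjamini-Hochberg adjustment ran over all genes tested, in 8 comparisons. edgeR and DESeq2 1.42.0 were run on recovered reads. Other alternatives were TMM scaling, a pseudocount of 16, no filter, library-number range, sex, and leaving out each library. Tested on simulated data with 200 of 17160 genes changed 8-fold, limma recovered 95.5% between MPP3 and LT-HSC and 88% for the genotype in LT-HSC. It also called 16 and 10 unchanged genes there. The changed genes were drawn only from those above a floor on mean level. Members with few reads, smaller changes and comparisons of MPP2 alone with another group were therefore not covered.

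Members and lists were chosen with earlier results of these data known. Values by library are given for each member called in any comparison and, where under 2 were called, for the 2 of smallest p. Up to 4 called genes of each wider list per comparison could be named. Values by library of other genes, the choice of Hoxb5, Mpo and Cd3e, and the members given by group means were chosen after their values were seen. Promoter windows came from RefSeq.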

Additional observations from a re-analysis of the deposited data

Results flagged for a closer look

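In 78 groups of 4 WT libraries a single library was compared with its 3 fellows by Dixon's test at the 95% level on log2(normalised count + 1), and 6 groups held a library apart from the rest, where chance alone gives about 1 in 20. Of these groups, 4 are in WT LT-HSC. Traf1 had 30.2 normalised counts in WT LT-HSC replicate 1, against 218 to 295 in the others. Traf3, an inhibitor of the noncanonical branch, had 368 in WT LT-HSC replicate 3 (others 181 to 195), and Cxcl2 had 0 there (others 29.3 to 48.4). Ikbkg had 473 in the library labelled WT LT-HSC replicate 4 (others 724 to 765). Relb had 0.891 in WT MPP3 replicate 3 (others 53.2 to 77.7), and Ikbke, a kinase related to the IkB kinases, had 84.7 in WT MPP3 replicate 1 (others 241 to 292).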

How the results depend on the processing

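The labels carry no replicate numbers, so no fit with replicate number as a block was made. The nearest to a block was the library-number range as a covariate, with 6 members called between MPP2 and LT-HSC, 10 between MPP2 and MPP3 and 0 in any genotype comparison.

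For the 22 fold changes of named members, 28 alternatives each gave 616 values, of which 598 kept direction and side of the threshold, 12 lost the call, 6 gained it and 0 reversed. Ltb, Nfkbiz and Ccl3 kept each population call under all 28 alternatives, as did Ccl4, Birc3, Tnfrsf1a and Bcl3 between MPP2 and MPP3. The fits within a genotype are not among these 28, and calls were lost there. Members called between MPP2 and LT-HSC numbered 2 within KO and 2 within WT, and between MPP2 and MPP3 5 within KO and 0 within WT. Leaving out 1 library at a time gave 2 to 7 members (MPP2 minus LT-HSC), 1 to 2 (MPP3 minus LT-HSC), 7 to 11 (MPP2 minus MPP3), and, KO minus WT, 0 to 2 in MPP2 and on average, 0 to 0 in MPP3 and in LT-HSC, and 0 to 1 for the interaction.

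Counts over all genes moved more. KO minus WT in MPP2 (2 genes) gave 0 with edgeR, pseudocount 16, no filter, the library-number range or sex, 111 with DESeq2, and 1 without KO MPP2 replicate 3 and WT MPP3 replicate 3, the pair with the fewest genes read, a choice made after seeing the data. In MPP3 (1 gene) it gave 0 with edgeR, pseudocount 16, range, sex or that pair left out, 22 with DESeq2 and 3 with no filter. In LT-HSC (1 gene) it gave 0 with edgeR, 21 with DESeq2, 2 with pseudocount 16 and 3 with no filter. The average (2 genes) gave 1 with edgeR, pseudocount 16, range or the pair left out, and 54 with DESeq2. The interaction gave 4 with DESeq2. MPP2 minus LT-HSC gave 773 with edgeR, 1908 with the range, 206 within KO and 143 within WT. MPP3 minus LT-HSC gave 327 within KO and 681 within WT. MPP2 minus MPP3 gave 741 with edgeR, 478 within KO and 74 within WT. Leaving out 1 library gave 0 to 350 genes, KO minus WT, in MPP2, 0 to 2 in MPP3 and in LT-HSC, 2 to 72 on average and 0 to 83 for the interaction, and 717 to 1631, 996 to 1497 and 675 to 1564 for MPP2 minus LT-HSC, MPP3 minus LT-HSC and MPP2 minus MPP3. Within-genotype counts rest on fewer libraries. The cause of the other changes was not tested. Lta, with 2 reads in all, could not be tested at this depth.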
